A study of Drosophila melanogaster with 9 samples.

Results

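The zinc transporter genes described here are 9 of the 17611 genes in a count table of Drosophila Malpighian tubules. They were taken by name, with earlier results of these data known. Counts of them beside the share of all genes, or beside zinc transporter genes that were not taken, are thus descriptions. ZnT35C, ZnT63C, ZnT86D, ZnT41F and ZnT77C belong to the ZnT family, and Zip42C.1, Zip42C.2, Zip71B and Zip88E to the Zip family. All 9 were found, and 7 passed the filter on low counts. Zip42C.1 and Zip42C.2 did not pass it.

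Zinc crosses membranes through transporters of these families. ZnT proteins carry it out of the cytosol, either through the plasma membrane or into organelles, and Zip proteins carry it into the cytosol. In flies the tubules, which are the renal organ, are a main store of zinc, held in granules of the principal cells. ZnT35C is known to be needed for these stores, and Zip71B is known to bring zinc into tubule cells. The study asked how tubules differ in flies with a tumour and in tumour flies with less of the hormone ITP (ion transport peptide), and zinc handling is read here from the same libraries.

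Tubule RNA was sequenced after poly-A enrichment in 9 libraries, 3 for each of 3 genotypes. All flies carried tub-Gal80ts, esg-Gal4 and UAS-GFP, so that transgenes were switched on in esg-expressing progenitor cells when the flies were moved to 29 °C for 8 days, after 6 to 8 days at 18 °C as virgin adults. The ITP-i flies carried UAS-Yki-3SA, which encodes constitutively active Yorkie, a growth regulator, together with UAS-ITP-i, an RNA interference transgene. The yki3SA flies carried UAS-Yki-3SA without the RNAi transgene, and the control flies carried neither. No group carried a neutral RNAi transgene, and esg is also expressed in stem cells of the tubule itself. RNA was taken from 80 pooled tubules per genotype, and the labels do not say whether the 3 libraries of a genotype came from separate fly cultures, so p-values measure the spread between these libraries, which may be technical. Titles of the ITP-i libraries lack the remark that those of the yki3SA and control libraries are a re-analysis, so this remark and the ITP-i genotype cannot be told apart.

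Libraries held 34640437 to 49338340 counts. ITP transcripts were at 51.7 to 63.7 CPM (the usual unit of counts scaled to a library's total) in ITP-i, 56.8 to 77.0 CPM in yki3SA and 32.7 to 44.7 CPM in control after scaling with TMM (trimmed mean of M-values) factors. ITP-i and yki3SA overlapped (log2 -0.22, edgeR adjusted p = 0.35), and a lower ITP level in ITP-i was thus not detected in these whole-tubule libraries. The RNAi transgene was driven in esg-expressing cells, so ITP levels of whole tubules cannot show whether the knockdown worked. Against control edgeR called ITP higher in yki3SA (log2 0.89, adjusted p = 0.003) and in ITP-i (log2 0.67, adjusted p = 0.027). Transcripts of yki did not pass the test in any comparison (adjusted p = 0.34 to 0.75). All 10 principal cell markers and all 9 markers of stellate cells, the other main cell type, were detected in each genotype. Markers of other organs were also present, and those of fat body, gut and ovary differed between genotypes. On total counts, the 14 fat body markers summed to 1957 to 3544 CPM in ITP-i, 222 to 454 CPM in yki3SA and 2387 to 5440 CPM in control. For the 29 gut enterocyte markers the sums were 214 to 535 CPM in ITP-i, 40.5 to 167 CPM in yki3SA and 431 to 1123 CPM in control. Those without a count were deltaTry in ITP-i, Jon25Bi, LysS, deltaTry and gammaTry in yki3SA, and Jon66Cii in control. The 14 ovary markers summed to 75.8 to 178 CPM in ITP-i, 45.1 to 83.0 CPM in yki3SA and 145 to 282 CPM in control, and none was at 0.

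In yki3SA against control, 4 of the 7 tested zinc transporters fell and 0 rose at an adjusted p under 0.05. Zip88E, ZnT86D, ZnT41F and ZnT35C were the members that fell, by 1.31, 0.97, 0.61 and 0.78 on the log2 scale. ZnT63C, ZnT77C and Zip71B did not pass the test. In these whole tubules fewer cells of a type and less RNA per cell cannot be told apart. The background was 30.1% of the 10253 genes tested called in either direction, 14.0% lower and 16.2% higher. Of the 7 tested ZnT and Zip genes that are not members, 1 fell and 0 rose. The libraries of the 2 genotypes did not overlap for 5 of the 7 tested members, all lower in yki3SA (the 4 called and ZnT77C), against 45.8% of all genes in either direction and 19.8% lower. The median log2 fold change was -0.65 over the 7 tested members and 0.07 over all genes tested. No member rose by edgeR at an unadjusted p under 0.05 (0 of 7), by DESeq2 (0) or by limma-voom (0). With total-count scaling, which shifted the median of all genes to 0.37, 2 members were called lower and 1 (ZnT63C) higher, and over all genes 931 were called lower and 3285 higher.

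In ITP-i against yki3SA, 2 of the 7 members rose and 1 fell. Zip71B and ZnT86D rose, by 0.93 and 0.46 on the log2 scale, and ZnT63C fell by 0.69 on the log2 scale. The background was 20.7% of genes called, 10.6% higher and 10.1% lower, and 0 of the 7 other tested ZnT and Zip genes were called. The libraries did not overlap for 3 members that were higher (Zip71B, ZnT86D and Zip88E) and 1 that was lower, ZnT63C, against 41.8% of all genes in either direction, 19.2% higher and 22.6% lower. The members' median was 0.39, against -0.04 over all genes. With total-count scaling, which moved the median of all genes to -0.24, 1 member was called in each direction (Zip71B higher and ZnT63C lower), and over all genes 883 were called higher and 2243 lower. These yki3SA libraries also serve in the comparison with control, so the values of the comparisons are not independent.

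In ITP-i against control, 4 of the 7 members fell and 0 rose. Zip88E, ZnT63C, ZnT86D and ZnT41F fell, by 0.92, 0.60, 0.51 and 0.44 on the log2 scale. The background was 10.5% of genes called, 4.14% lower and 6.37% higher, and the members' median was -0.51, against 0.00 over all genes. Here too 0 of the 7 other tested ZnT and Zip genes were called. In the positive direction, 1 member (Zip71B) had an unadjusted p under 0.05 by edgeR, and DESeq2 and limma-voom called 0. Zip88E, ZnT86D and ZnT41F were called lower against control in both tumour genotypes, which share the control libraries.

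**Figure D1:**
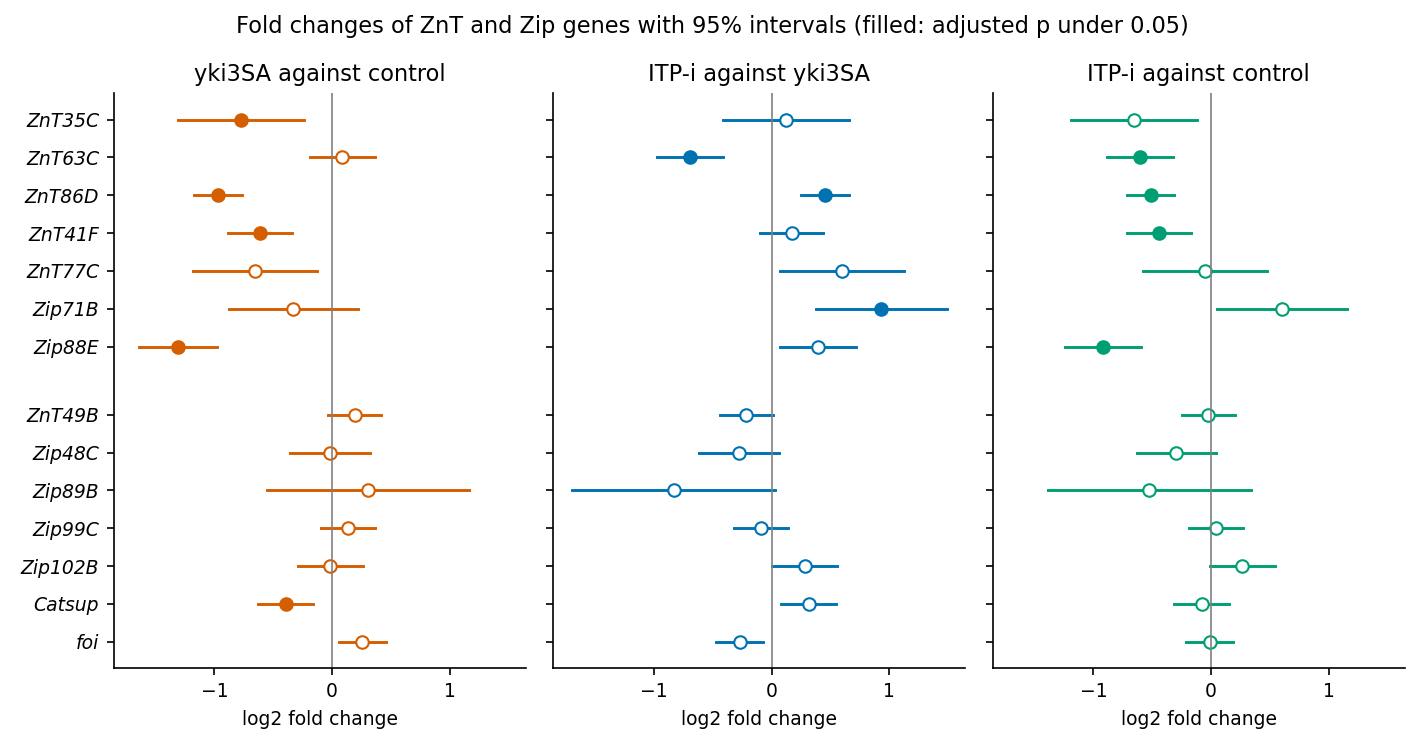
Log2 fold changes (x axis) of the 14 tested ZnT and Zip genes in the 3 comparisons, with 95% intervals from the edgeR fit. The upper 7 are the members described here, and filled points passed an adjusted p of 0.05. Zip88E, at -1.31 in yki3SA against control, was the largest change, and Zip71B, at 0.93, the largest rise in ITP-i against yki3SA.

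ZnT35C (FBgn0028516, chromosome arm 2L) is an exporter known to be needed for the zinc stores of tubule cells. The deposited table annotates it as similar to mouse zinc transporter ZnT2. Levels below are CPM scaled with TMM factors. ZnT35C was at 882, 769 and 1017 CPM in ITP-i libraries, 855, 816 and 781 CPM in yki3SA, against 2031, 1201 and 970 CPM in control. Control library 1 stood far above the other control libraries, all yki3SA libraries were below all control libraries, and ITP-i overlapped both. ZnT35C averaged 817 ± 37.0 CPM in yki3SA and 1401 ± 558 CPM in control (SD, n = 3 each), 1.71-fold lower in yki3SA (log2 -0.78, SE 0.24, adjusted p = 0.035). That call ended without control library 1 (log2 -0.44, adjusted p = 0.088), without any 1 of the yki3SA libraries (adjusted p = 0.068, 0.077 and 0.080) and without ITP-i library 1 (adjusted p = 0.055). It also ended with total-count scaling (log2 -0.48, adjusted p = 0.12) and in a fit of only these groups (adjusted p = 0.061), within a range of 0.0028 to 1.0 over all alternatives. ITP-i averaged 889 ± 124 CPM. Neither ITP-i against yki3SA (log2 0.12, 95% interval -0.41 to 0.66, adjusted p = 0.76) nor ITP-i against control (log2 -0.66, interval -1.19 to -0.12, adjusted p = 0.12) passed the test. ITP-i against control was called lower by DESeq2 (adjusted p = 0.036) and when control library 3 was left out (log2 -0.88, adjusted p = 0.045), with 0.036 to 0.50 over all alternatives.

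Zip71B (FBgn0036461, arm 3L) is an importer known to bring zinc into tubule cells. It was at 1208, 1175 and 888 CPM in ITP-i libraries, 608, 626 and 479 CPM in yki3SA, against 1023, 506 and 623 CPM in control. Every ITP-i library was above every yki3SA library, and control overlapped both. Control libraries 2 and 3 lay within the yki3SA range, and control library 1 lay within the ITP-i range. Zip71B averaged 1090.5 ± 176 CPM in ITP-i and 571 ± 80.1 CPM in yki3SA, a 1.91-fold rise (log2 0.93, SE 0.25, adjusted p = 0.027). The call ended without any 1 of the yki3SA libraries or without ITP-i library 1 or 2 (log2 0.83 to 1.02), where adjusted p was 0.053 to 0.093, within a range of 0.00096 to 0.99 over all alternatives. In yki3SA against control (717 ± 271 CPM) the log2 fold change was -0.33 (interval -0.88 to 0.22, adjusted p = 0.35). In ITP-i against control it was 0.60 (interval 0.05 to 1.16, adjusted p = 0.17), and without control library 1 it was 0.94 and was called (adjusted p = 0.022, with 0.022 to 0.40 over all alternatives).

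**Figure D2:**
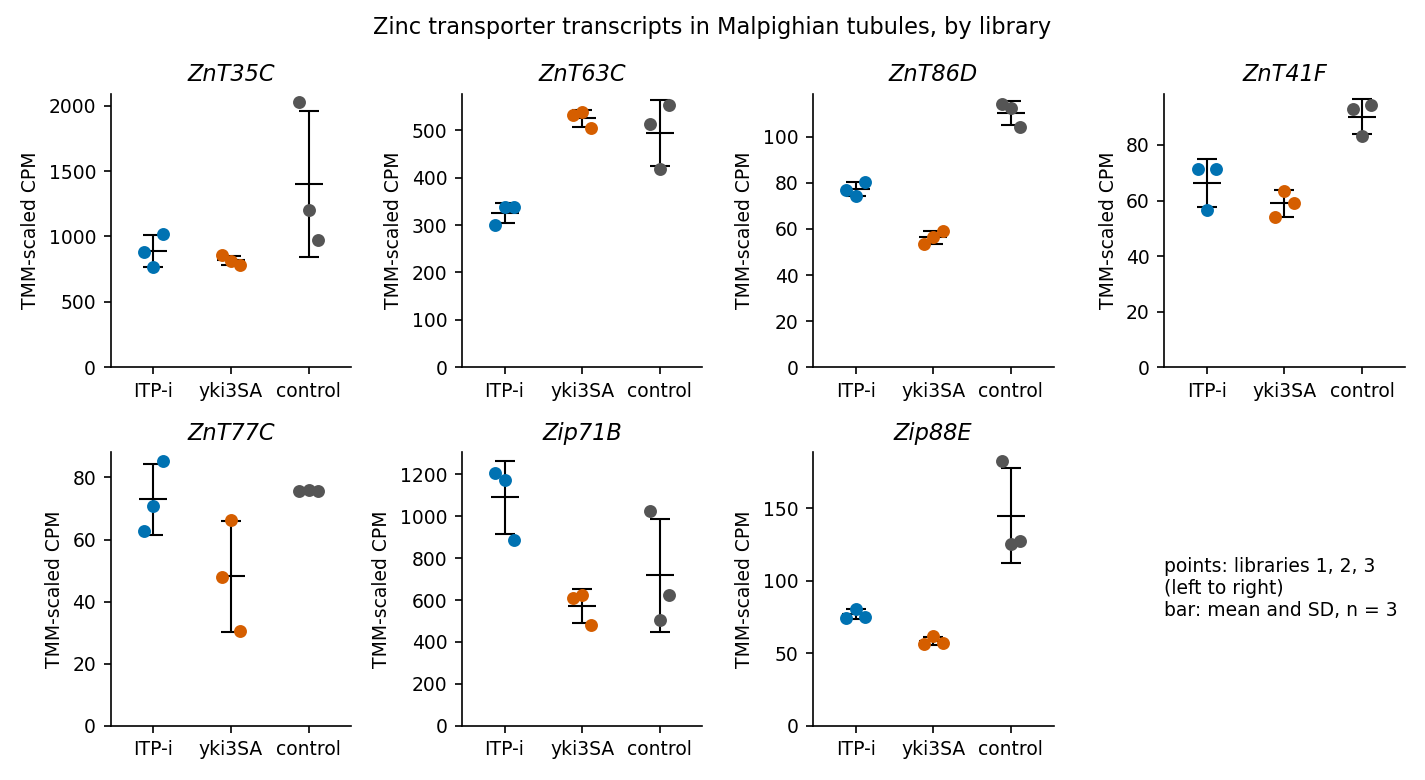
TMM-scaled CPM (y axis, from 0) of the 7 tested members in each library of ITP-i, yki3SA and control; points are libraries 1 to 3 from left to right, and bars give mean and SD (n = 3). Control library 1 is the highest point for ZnT35C (2031 CPM) and Zip88E (182 CPM), while the ITP-i libraries lie below all others for ZnT63C (301 to 338 CPM).

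The ratio of Zip71B to ZnT35C within a library, in reads per kb of exon, does not depend on scaling between libraries. This pair and Zip71B with ZnT63C were chosen after their values were seen. Zip71B had 1.23, 1.37 and 0.783 times the ZnT35C level in ITP-i, 0.638, 0.688 and 0.55 times in yki3SA and 0.452, 0.378 and 0.576 times in control. All ITP-i libraries were above all others, and yki3SA overlapped control. The mean ratio was 1.13 ± 0.306 in ITP-i and 0.625 ± 0.0698 in yki3SA (SD, n = 3 each, exact permutation test, two-sided, p = 0.10, the smallest that 3 against 3 libraries can give). Against ZnT63C the ratio was 5.47, 4.72 and 3.58 in ITP-i, 1.56, 1.58 and 1.29 in yki3SA and 2.72, 1.65 and 1.53 in control. It averaged 4.59 ± 0.951 in ITP-i and 1.48 ± 0.160 in yki3SA (exact permutation p = 0.10), without overlap. Of the 6 tests made on these ratios, none can pass 0.05 at this number of libraries.

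**Figure D3:**
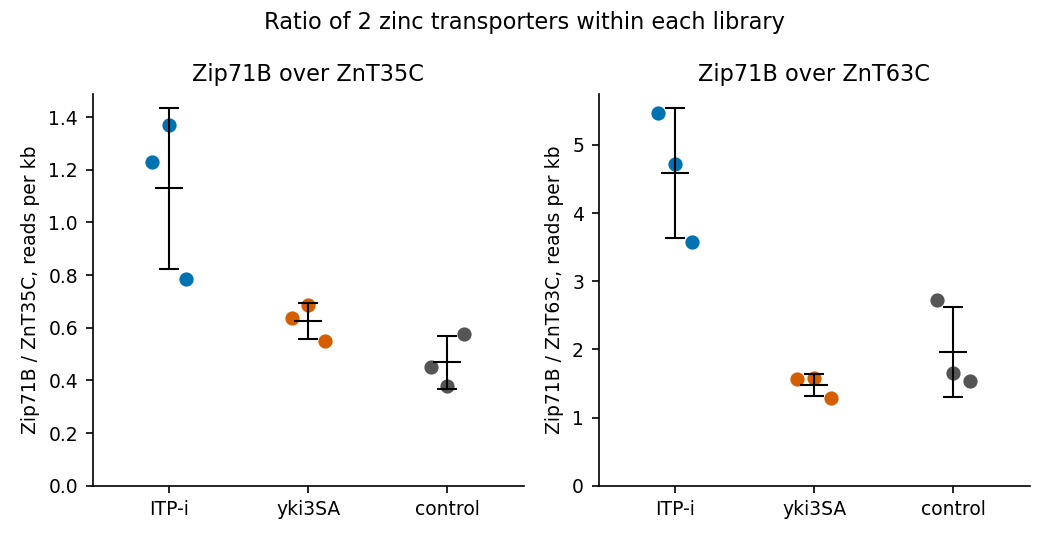
Ratio of Zip71B to ZnT35C (left) and to ZnT63C (right), as reads per kb of exon in each library (y axis, from 0), with mean and SD of 3 libraries. ITP-i libraries lie above all yki3SA and control libraries in both panels, at 0.783 to 1.37 on the left and 3.58 to 5.47 on the right.

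ZnT63C (FBgn0035432, arm 3L) and ZnT77C (FBgn0037000, arm 3L) are relatives of ZnT1, the exporter of the plasma membrane. In the fly gut both are known to pass dietary zinc from enterocytes to the body. ZnT63C was at 301, 338 and 338 CPM in ITP-i libraries, 532, 539 and 505 CPM in yki3SA, against 513, 418 and 554 CPM in control. The ITP-i libraries lay below all libraries of the other genotypes, and yki3SA lay within the control range. ZnT63C averaged 326 ± 21.5 CPM in ITP-i and 526 ± 17.9 CPM in yki3SA (log2 -0.69, SE 0.13, adjusted p = 0.0053), and this call was made without each of the 9 libraries in turn. Against control (495 ± 69.8 CPM) it was 1.52-fold lower in ITP-i (adjusted p = 0.014), but not when ITP-i library 1 or control library 3 was left out (adjusted p = 0.072 and 0.054, with 7.5e-05 to 0.088 over all alternatives). In yki3SA against control the log2 fold change was 0.09 (interval -0.19 to 0.37, adjusted p = 0.64), and total-count scaling called it higher (log2 0.38, adjusted p = 0.029, with 0.029 to 0.98 over all alternatives).

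ZnT77C was at 62.9, 70.8 and 85.4 CPM in ITP-i libraries, 47.8, 66.3 and 30.4 CPM in yki3SA, against 75.7, 76.0 and 75.5 CPM in control. The control libraries were nearly equal, and the yki3SA libraries were the most spread. The mean was 48.2 ± 17.9 CPM in yki3SA and 75.7 ± 0.237 CPM in control, and the difference did not pass the test (log2 -0.65, interval -1.18 to -0.13, adjusted p = 0.061). DESeq2 and limma-voom called it lower (adjusted p = 0.019 and 0.041), as did the fit without yki3SA library 2 (log2 -0.98, adjusted p = 0.010), within a range of 0.010 to 1.0 over all alternatives. In ITP-i against yki3SA it was 0.60 (interval 0.08 to 1.13, adjusted p = 0.096), and without yki3SA library 2 it was 0.92 and was called (adjusted p = 0.023). DESeq2 called it as well (adjusted p = 0.046, with 0.023 to 1.0 over all alternatives).

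ZnT86D (FBgn0037875, arm 3R) is a relative of ZnT7, which carries zinc into the Golgi apparatus. It was at 76.8, 74.4 and 80.4 CPM in ITP-i libraries, 53.3, 56.5 and 59.1 CPM in yki3SA, against 114, 112 and 104 CPM in control. The 3 genotypes did not overlap, with ITP-i between the other groups. ZnT86D averaged 56.3 ± 2.92 CPM in yki3SA and 110.3 ± 5.37 CPM in control, 1.96-fold lower in yki3SA (log2 -0.97, SE 0.09, adjusted p = 6.7e-05). It rose 1.37-fold to 77.2 ± 2.99 CPM in ITP-i, against yki3SA (log2 0.46, SE 0.09, adjusted p = 0.0079), and was 1.43-fold lower in ITP-i than in control (log2 -0.51, adjusted p = 0.0053). Each of these calls was made without each library in turn. The rise in ITP-i against yki3SA ended with total-count scaling (log2 0.25, adjusted p = 0.12, with 7.0e-06 to 0.96 over all alternatives).

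ZnT41F (FBgn0025693, arm 2R), which the deposited table annotates as similar to ZnT2, was at 71.2, 56.4 and 71.4 CPM in ITP-i libraries, 54.1, 63.5 and 59.3 CPM in yki3SA, against 93.0, 83.2 and 94.5 CPM in control. All control libraries were above all others, and the tumour genotypes overlapped each other. It averaged 58.9 ± 4.72 CPM in yki3SA and 90.2 ± 6.18 CPM in control (log2 -0.61, SE 0.12, adjusted p = 0.0046). That call ended with total-count scaling (log2 -0.32, adjusted p = 0.084, with 1.5e-05 to 1.0 over all alternatives). The fall in ITP-i against control (66.3 ± 8.59 CPM in ITP-i, log2 -0.44, adjusted p = 0.045) was called in 6 of 21 alternatives, which gave adjusted p = 0.0088 to 0.22. It ended without control library 1 or 3, without yki3SA library 2 or 3 and without any 1 of the ITP-i libraries (log2 -0.50 to -0.35).

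Zip88E (FBgn0038312, arm 3R) is a Zip family member that the deposited table places in the orthology group of ZIP1, ZIP2 and ZIP3. It was at 74.4, 80.6 and 75.1 CPM in ITP-i libraries, 56.5, 61.7 and 57.0 CPM in yki3SA, against 182, 125 and 127 CPM in control. The genotypes did not overlap, and control library 1 was again the highest. Zip88E averaged 58.4 ± 2.86 CPM in yki3SA and 145 ± 32.4 CPM in control, 2.48-fold lower in yki3SA (log2 -1.31, SE 0.15, adjusted p = 1.9e-04). In ITP-i (76.7 ± 3.40 CPM) it was 1.89-fold lower than in control (log2 -0.92, SE 0.15, adjusted p = 0.0031). Both falls were called without each library in turn. In ITP-i against yki3SA the log2 fold change was 0.39 (interval 0.07 to 0.72, adjusted p = 0.082), and it was called without control library 1 (adjusted p = 0.019), by DESeq2 (adjusted p = 0.041) and in 3 other of 21 alternatives, with 0.019 to 0.99 over all of them. In the reference annotation 6.6% of the Zip88E exon bases overlap Cp190 on the other strand, and the strand setting of the counting is not given.

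**Figure D4:**
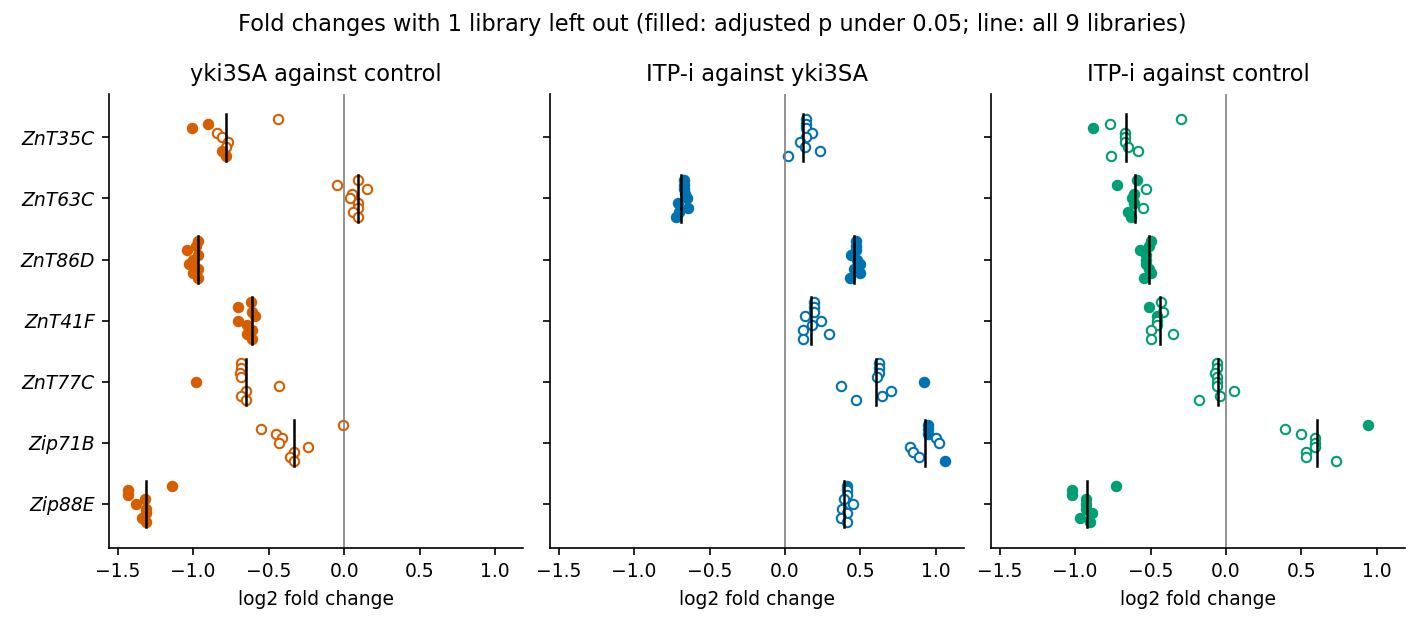
Log2 fold changes (x axis) of the 7 tested members with each of the 9 libraries left out in turn (points), beside the value from all libraries (black line); filled points passed an adjusted p of 0.05. For ZnT35C in yki3SA against control 4 of 9 points are filled, and for ZnT86D and Zip88E all 9 are.

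Zip42C.1 (FBgn0033096) and Zip42C.2 (FBgn0033097), on arm 2R, are the importers through which fly enterocytes take up dietary zinc. Zip42C.1 had no count in ITP-i or yki3SA and 4, 10 and 0 counts in control libraries 1, 2 and 3. Zip42C.2 had no count in ITP-i or yki3SA and 15, 4 and 1 counts in control. A count of 0 allows up to 3 counts, which is 0.0866 CPM in the smallest library and 0.0608 CPM in the largest, for counting error only. These levels are too low for a test, and the gut markers in the same libraries summed to 341, 214 and 535 CPM in ITP-i libraries, 69.7, 167 and 40.5 CPM in yki3SA, against 1123, 431 and 634 CPM in control. The part of gut tissue in these counts was not tested.

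Levels of different genes were compared per kb of exon. In ITP-i the order began with Zip71B (456 ± 73.5 CPM per kb), ZnT35C (415 ± 57.9 CPM per kb) and Zip48C (315 ± 57.8 CPM per kb), a Zip gene outside the 9. The libraries of Zip71B and ZnT35C overlapped each other, as did those of ZnT35C and Zip48C. In yki3SA ZnT35C (381 ± 17.3 CPM per kb) and Zip48C (381 ± 50.2 CPM per kb) led and overlapped, and Zip71B (239 ± 33.5 CPM per kb) lay below both. In control ZnT35C (654 ± 260 CPM per kb) stood above Zip48C (386 ± 4.70 CPM per kb), which overlapped Zip71B (300.1 ± 113 CPM per kb). ZnT63C came next in each genotype, at 100.1 ± 6.62 CPM per kb in ITP-i, 162 ± 5.49 CPM per kb in yki3SA and 152 ± 21.5 CPM per kb in control. The other tested members were lower. Zip88E was at 49.8, 37.9 and 94.1 CPM per kb in ITP-i, yki3SA and control, and ZnT86D at 38.5, 28.1 and 55.1 CPM per kb. ZnT77C and ZnT41F lay between 19.0 and 36.7 CPM per kb in all genotypes, and their libraries overlapped in ITP-i and in yki3SA.

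Summed per kb, the 5 ZnT members reached 596, 551 and 681 CPM per kb in ITP-i libraries, 630.1, 627 and 586 CPM per kb in yki3SA, against 1230, 809 and 743 CPM per kb in control. The 4 Zip members summed to 554, 544 and 420 CPM per kb in ITP-i libraries, 291, 302 and 238 CPM per kb in yki3SA, against 547, 293 and 343 CPM per kb in control. The ZnT sums of ITP-i and yki3SA overlapped and lay below control, and the Zip sums of ITP-i lay above yki3SA and overlapped control. These sums rest mostly on ZnT35C and Zip71B. They leave out family genes that are not members, among them Zip48C, at 315, 381 and 386 CPM per kb in ITP-i, yki3SA and control. Of the per-kb level of all 17 ZnT and Zip genes, Zip71B made up 23.9% to 30.7% in ITP-i, 15.2% to 17.2% in yki3SA and 12.7% to 18.2% in control. ZnT35C made up 21.8% to 30.5% in ITP-i, 25.1% to 27.6% in yki3SA and 27.2% to 40.2% in control.

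**Figure D5:**
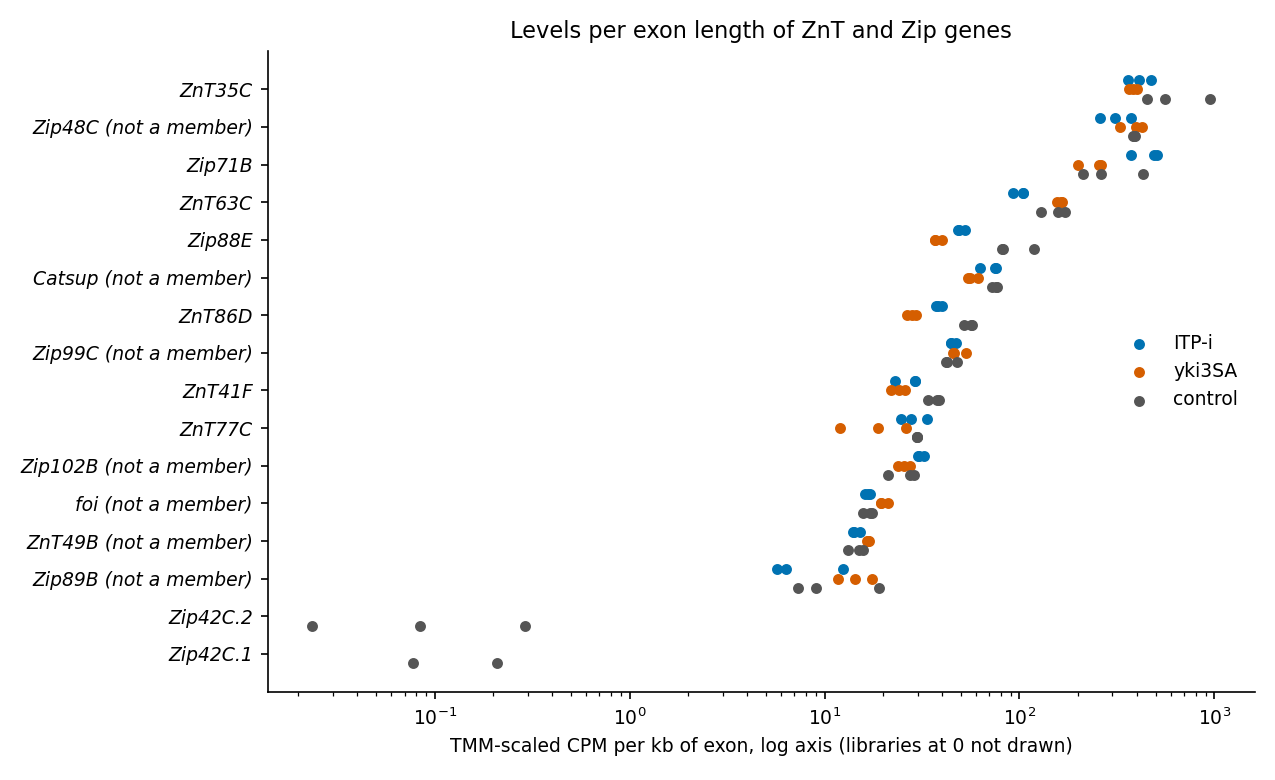
TMM-scaled CPM per kb of exon (x axis, log scale) of 16 ZnT and Zip genes, 1 point per library, in the order of their control means. ZnT33D is not drawn, nor are libraries at 0. ZnT35C, Zip48C and Zip71B lie to the right of all other genes within each genotype, and Zip42C.1 and Zip42C.2 have points for control libraries alone, at 0.292 CPM per kb or less.

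The other 8 genes of the families include ZnT33D, ZnT49B, Zip48C, Zip89B, Zip102B, Zip99C, which is known in flies to move iron, and Catsup and foi, relatives of ZIP7 and ZIP10. ZnT33D had 1 count in all libraries together and was not tested. In yki3SA against control 1 of 7 fell and 0 rose, against 14.0% of all genes called lower and 16.2% higher. The 1 was Catsup, at 97.1 ± 6.00 CPM in yki3SA and 128 ± 4.18 CPM in control (log2 -0.40, adjusted p = 0.019). Catsup was no longer called when yki3SA library 3 was left out (adjusted p = 0.051) or with total-count scaling (log2 -0.10, adjusted p = 0.50), within a range of 0.00079 to 1.0 over all alternatives. By edgeR 1 gene rose at an unadjusted p under 0.05, and DESeq2 and limma-voom called 0 higher, while total-count scaling called 3 higher and 0 lower. For ITP-i against yki3SA edgeR called 0 of 7, against 20.7% of all genes. By edgeR 2 were higher and 1 lower at an unadjusted p under 0.05, DESeq2 called 1 higher and limma-voom 0. Total-count scaling called 3 lower and 0 higher. For ITP-i against control edgeR called 0, against 10.5% of all genes, with 0 at an unadjusted p under 0.05 and 0 by DESeq2 or limma-voom. Median log2 fold changes of the 7 were 0.13, -0.22 and -0.02 in yki3SA against control, ITP-i against yki3SA and ITP-i against control. Zip48C, the most abundant of the 7, was at 591 ± 109 CPM in ITP-i, 716 ± 94.2 CPM in yki3SA and 725 ± 8.82 CPM in control, with adjusted p = 0.22 to 0.94.

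MTF-1, the transcription factor that senses zinc and other metals, and its metallothionein targets were listed with the transporters. MTF-1 was at 43.0 ± 6.64 CPM in ITP-i, 38.9 ± 3.05 CPM in yki3SA and 36.8 ± 4.98 CPM in control, with adjusted p = 0.41 to 0.71. MtnA, the most abundant metallothionein, was at 1239, 1146 and 2161 CPM in ITP-i libraries, 2313, 1165 and 1646 CPM in yki3SA, against 5124, 5953 and 3050 CPM in control. All control libraries were above those of both tumour genotypes, which overlapped each other. MtnA fell 2.76-fold in yki3SA against control (log2 -1.46, SE 0.34, adjusted p = 0.010) and 3.11-fold in ITP-i against control (log2 -1.64, SE 0.34, adjusted p = 0.014), a call that ended without ITP-i library 1 or 2 (adjusted p = 0.064 and 0.062, with 3.5e-06 to 0.064 over all alternatives). MtnC also fell in yki3SA, at 0.403 ± 0.473 CPM against 4.55 ± 3.45 CPM in control (adjusted p = 0.016), until control library 1 or yki3SA library 1 was left out (adjusted p = 0.061 for both, with 8.7e-05 to 1.0 over all alternatives). MtnD rose in ITP-i, at 1.19 ± 0.140 CPM against 0.324 ± 0.0541 CPM in yki3SA (adjusted p = 0.047), and this was called in 7 of 20 alternatives (adjusted p = 0.017 to 0.99). MtnE was between 0.0670 and 2.61 CPM in all libraries and was not called. MtnB and MtnF were below the filter. With total-count scaling 2 genes of this list were called lower and 1 (MTF-1) higher in yki3SA against control, and 0 in ITP-i against yki3SA.

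Of 21 genes for pigment and storage granules (lysosome-related organelles), 19 were tested, and Snapin and Muted had no count. In yki3SA against control 6 rose and 1 fell, against 16.2% of all genes called higher and 14.0% lower. Their median log2 fold change was 0.32, against 0.07 over all genes. The smallest p among the rises were for lt, a subunit of the vesicle tethering HOPS complex, at 67.4 ± 2.50 CPM in yki3SA and 46.8 ± 4.28 CPM in control (adjusted p = 0.0033), and cm, the medium subunit of the AP-3 sorting complex, at 24.7 ± 0.282 CPM in yki3SA and 18.1 ± 1.31 CPM in control (adjusted p = 0.015). The call of cm was lost when yki3SA library 2 or control library 1 or 3 was left out (adjusted p = 0.062, 0.078 and 0.052) and with upper-quartile scaling (adjusted p = 0.050), within a range of 0.0030 to 0.99. The 1 that fell was st, a half-transporter of pigment precursors, at 381 ± 34.5 CPM in yki3SA and 1057 ± 126 CPM in control (adjusted p = 4.0e-05). With total-count scaling 13 rose and 1 fell, and the median was 0.62, against 0.37 over all genes.

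Of the 19 tested granule genes 1 rose and 2 fell in ITP-i against yki3SA, against 10.6% of all genes called higher and 10.1% lower. Their median was -0.27, against -0.04 over all genes. st rose, at 624 ± 12.4 CPM in ITP-i, a call made without each library in turn. lt fell to 52.0 ± 0.840 CPM in ITP-i (adjusted p = 0.024) and bw, the brown half-transporter, to 75.4 ± 8.96 CPM in ITP-i, against 108 ± 16.7 CPM in yki3SA (adjusted p = 0.034). Both of these calls ended in 5 of the 9 fits without 1 library (adjusted p up to 0.085 for lt and 0.13 for bw, and up to 0.95 and 0.99 over all alternatives). With total-count scaling 1 rose and 9 fell. In ITP-i against control cm rose (28.0 ± 2.08 CPM in ITP-i, log2 0.63, adjusted p = 0.0060) and st fell (log2 -0.76, adjusted p = 0.0033), with a median of 0.04 over the 19 and 0.00 over all genes. These were the 1 rise and 1 fall, against 6.37% of all genes called higher and 4.14% lower.

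The genes whose levels over the 9 libraries were most like those of ZnT35C and Zip71B were found by the root mean square difference of centred log2(CPM + 0.5) values. For ZnT35C they were Pgi, which encodes the glycolytic enzyme phosphoglucose isomerase (difference 0.12), CG31446 (0.14) and CG30280 (0.18), against a median of 0.54 over all genes tested. Pgi was at 429 ± 46.1 CPM in ITP-i, 390.1 ± 28.7 CPM in yki3SA and 607 ± 167 CPM in control. CG31446 and CG30280 averaged below 1.4 CPM in every genotype, close to the added 0.5, which shrinks their differences. For Zip71B they were Fur1, which encodes the protease furin 1 (0.16), Phae2 (0.16) and rdog (0.17), against a median of 0.60. Fur1 was at 282.5 ± 57.5 CPM in ITP-i, 159.8 ± 23.5 CPM in yki3SA and 181 ± 55.9 CPM in control. rdog was at 805 ± 156 CPM in ITP-i, 396.5 ± 46.0 CPM in yki3SA and 496 ± 144 CPM in control. All these values share the 9 libraries and their scaling, and they describe likeness in these libraries.

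Markers of principal cells, fat body, gut and ovary moved in the comparisons with yki3SA, where transporters were called as well. Of 10 principal cell markers, 5 fell and 0 rose in yki3SA against control, and 5 rose and 0 fell in ITP-i against yki3SA. Of all genes tested, 14.0% were called lower and 16.2% higher in yki3SA against control. The shares in ITP-i against yki3SA were 10.6% higher and 10.1% lower. The principal cell markers summed to 12049 to 13550 CPM in ITP-i, 10906 to 11899 CPM in yki3SA and 13988 to 15616 CPM in control. The 9 stellate cell markers summed to 1134 to 1315 CPM in ITP-i, 1362 to 1552 CPM in yki3SA and 1243 to 1471 CPM in control, with 1 rise and 3 falls in yki3SA against control and log2 fold changes of -0.46 to 0.65, none of them called by edgeR, in ITP-i against yki3SA. Of the tested markers in yki3SA against control, 7 of 14 for fat body, 18 of 26 for gut and 10 of 14 for ovary fell, while 1, 1 and 0 rose. In ITP-i against yki3SA 6, 12 and 9 of these rose and 2, 0 and 0 fell. In yki3SA against control 0 of 10 muscle and 0 of 2 renal stem cell markers were called, and 2 of 7 hemocyte markers fell. In ITP-i against yki3SA 4 muscle, 0 renal stem cell and 2 hemocyte markers rose, and 0 fell. In ITP-i against control, where 4 of the 7 members fell, fewer of these markers were called. There 1 principal cell, 0 fat body, 2 gut and 0 ovary markers rose, and 1, 2, 5 and 0 fell. Of all genes tested, 6.37% were called higher and 4.14% lower in that comparison. With the fat body level taken as a covariate no member was called in yki3SA against control or in ITP-i against yki3SA, and 13 and 4 of the 10253 genes were called. With the gut marker level no member was called in either, and 138 and 158 genes were. Several members kept a fold of similar size without the call. ZnT86D was at log2 -1.05 with the fat body covariate and -0.93 with the gut covariate in yki3SA against control, and Zip88E at -1.19 and -0.93. In the same comparison ZnT35C was at -0.96 and 0.01, and ZnT41F at 0.13 and -0.26. For ITP-i against yki3SA ZnT63C was at -1.04 and -0.83, and ZnT86D at 0.53 and 0.43, while Zip71B was at 0.30 and 0.49. The fat body and gut marker levels of yki3SA differ so much from the other genotypes that marker level and genotype cannot be told apart there. Between ITP-i and control these marker levels overlapped. ZnT86D and Zip88E, 2 members, were called lower in ITP-i against control with either covariate. In that comparison 704 genes were called in either direction with the fat body covariate and 626 with the gut covariate.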

How the data were processed

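The authors deposited 1 table of raw gene counts, not normalized, for 9 tubule libraries, 3 per genotype. Per the submitters' processing notes TopHat, Cufflinks, HTSeq and DESeq were used, with no version or role. The sources used here give no genome build, annotation or strand setting. The table's IDs were matched to symbols (17552 of 17611).

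Counts were tested with edgeR 4.0.16 (R 4.3.3): filterByExpr left 10253 genes, libraries were scaled by TMM, and quasi-likelihood F-tests in 1 fit of all 9 libraries (6 residual degrees of freedom) were adjusted by Benjamini-Hochberg over all genes tested, with a threshold of 0.05. The 95% intervals use the same fit. The fit was tested on simulated data. Alternatives were other scalings and filters, DESeq2 1.42.0, limma-voom (limma 3.58.1), a fit of only the groups compared, a replicate block, the summed fat body or gut markers as a covariate, a 2-fold minimum, and each library left out. Leaving out library 3 of both yki3SA and ITP-i was added after seeing the data. Levels per kb use exon lengths of Ensembl release 115, which may differ from the annotation counted on. Intervals and floors cover counting error only where they rest on single counts.

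Named genes are the 9 members, the other ZnT and Zip genes, the metal response list, up to 4 storage granule genes per comparison by smallest p, and the 3 genes most like ZnT35C and Zip71B. Members and lists were chosen with earlier results of these data known. No replicate pair of libraries agreed within sampling noise (smallest chi-square per degree of freedom 47.69). Python 3.11.15, numpy 2.4.6, pandas 2.3.3 and matplotlib 3.10.9 made the tables and figures.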

Additional observations from a re-analysis of the deposited data

How the results depend on the processing

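Counts of members called were 3 to 4 in yki3SA against control, 2 to 4 in ITP-i against yki3SA and 2 to 4 in ITP-i against control with each library left out in turn. In ITP-i against control the lowest, 2, came without ITP-i library 1. In the order of these comparisons, a fat body covariate gave 0, 0 and 2 members and 13, 4 and 704 genes. A gut covariate gave 0, 0 and 2 members and 138, 158 and 626 genes. A 2-fold minimum, which by construction calls fewer, gave 1, 0 and 0 members and 1293, 883 and 659 genes. DESeq2 called 5 members and 2671 genes in ITP-i against yki3SA, where edgeR called 3 members and 2126 genes. Over all genes, leaving out 1 library gave 2177 to 3150 calls in yki3SA against control. The ranges were 1028 to 2047 calls in ITP-i against yki3SA and 642 to 1095 in ITP-i against control. Leaving out library 3 of both tumour genotypes gave 1362 in ITP-i against yki3SA. Why the other counts differed was not tested.

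Log2 fold changes that turned sign belonged to differences that were not called, except in covariate fits of ZnT35C, ZnT41F and Catsup. In yki3SA against control the fat body covariate gave Zip71B 0.41, ZnT41F 0.13, ZnT77C 0.14 and Catsup 0.10, the gut covariate gave Zip71B 0.39, ZnT35C 0.01 and ZnT77C 0.29, and ZnT63C was -0.05 (without control library 2) to 0.15 with 1 library left out. In ITP-i against yki3SA total-count scaling gave ZnT35C -0.07 and ZnT41F -0.03, the fat body covariate ZnT41F -0.47 and ZnT77C -0.08, the gut covariate ZnT35C -0.41, ZnT41F -0.07 and ZnT77C -0.04, and ZnT35C was -0.02 without library 3 of both tumour genotypes. In ITP-i against control ZnT77C was -0.18 to 0.05 (0.05 without ITP-i library 1) with 1 library left out, 0.05 with total-count scaling, 0.06 with the fat body covariate and 0.25 with the gut covariate.

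With the replicate block 4, 3 and 3 members and 3189, 2287 and 1137 genes were called, and ZnT41F lost its call in ITP-i against control (adjusted p = 0.052, with 0.0088 to 0.22 over all alternatives). The 9 same-numbered pairs correlated at -0.082 to 0.175, 3 of them over 0.1, and differently numbered pairs at -0.259 to 0.143. The labels do not say that replicate numbers mark a shared culture or day, and pairing was not tested further.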
